A study of Mus musculus with 12 samples.

Results

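The genes described here are the protein-coding members of 3 enzyme families that attach a polar group to drugs, steroids, bilirubin and reactive by-products of metabolism, measured in mouse liver. They were chosen by symbol alone, without regard to level or diet. A gene was taken if its symbol began with Gst and a class letter (alpha, kappa, mu, omega, pi, theta or zeta) or with Mgst, Ugt1 to Ugt3 or Sult and a number. Of 27022 genes counted, 63 met the rule, namely 25 glutathione S-transferases (GST), 19 sulfotransferases (SULT) and 19 UDP-glycosyltransferases (UGT). Symbols, positions and exon lengths were taken from GENCODE M21, which is on GRCm38.

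Liver RNA came from 6 female SJL/J mice aged 11 weeks, all fed the AIN-93G control diet with 50 ppm iron from 3 weeks of age. From 6 weeks of age one cage was given an AIN-93G diet with 2% carbonyl iron, called iron-loaded here, and 3 mice of that cage and 3 of the control cage were sequenced, after a fast through the morning and perfusion of the tissue. Diet and cage cannot be told apart, because each diet had a single cage of 4 mice. The RNA of each mouse was made into 1 Trad-KAPA library, which samples fragments along the whole transcript, and 1 3’-LEXO library, which reads each transcript near its poly(A) tail, so that there were 12 libraries.

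In the second phase of detoxification, GST enzymes join glutathione to electrophiles, UGT enzymes of the first and second families transfer glucuronic acid from UDP-glucuronate, and SULT enzymes transfer a sulfonate group from the donor PAPS. The products are more soluble in water and leave through bile or urine. Hepatocytes carry many members of all 3 families, and several of them are known targets of the receptors AhR, CAR and PXR and of the antioxidant factor NRF2.

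Reads from the 3′ end cannot separate all members. The 9 Ugt1a genes lie in one locus at chr1:88055388-88220002 on the forward strand, and each has a first exon of its own that is spliced to the same 4 exons. In GENCODE M21 the shared exons start at position 88215044 and make up 1311 or 1318 bases of the transcript, except in Ugt1a7c, whose annotated last exon runs on to 88220002. The stretches below, from the GENCODE transcripts, are the last 30 bases of each own exon in lower case and the first 30 shared bases in capitals, and they are shown because a read that lies wholly within the shared exons fits every gene of the locus, while the lower-case part differs between most of them.
Ugt1a10: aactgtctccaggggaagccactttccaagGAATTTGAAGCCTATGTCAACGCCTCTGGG
Ugt1a9: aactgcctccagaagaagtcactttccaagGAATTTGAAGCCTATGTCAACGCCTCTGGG
Ugt1a8: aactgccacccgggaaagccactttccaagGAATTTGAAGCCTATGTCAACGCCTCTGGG
Ugt1a7c: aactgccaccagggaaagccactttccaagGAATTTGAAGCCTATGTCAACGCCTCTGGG
Ugt1a6b: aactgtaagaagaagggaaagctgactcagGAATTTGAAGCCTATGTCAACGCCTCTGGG
Ugt1a6a: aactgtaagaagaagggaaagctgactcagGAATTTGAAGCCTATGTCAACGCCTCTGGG
Ugt1a5: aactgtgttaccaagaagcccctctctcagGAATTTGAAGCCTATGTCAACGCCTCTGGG
Ugt1a2: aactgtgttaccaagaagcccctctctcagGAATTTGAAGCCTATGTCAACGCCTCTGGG
Ugt1a1: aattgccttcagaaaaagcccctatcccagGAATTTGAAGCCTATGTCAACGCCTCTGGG
The own parts of Ugt1a6a and Ugt1a6b were the same in all 30 bases, as were those of Ugt1a2 and Ugt1a5, and Ugt1a8 and Ugt1a7c differed in 1 base. The antisense gene Gm20528 overlaps 9.14 to 41.5% of the exon bases of the Ugt1a genes, and how strand was used in the counting is not given in the sources used here.

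The libraries held 13834682 to 16553616 counts in Trad-KAPA and 10724672 to 14104236 in 3’-LEXO, lowest in the iron-loaded 3’-LEXO libraries. Iron-loaded mouse 1 stood apart from the other mice of its diet. Its chi-square per degree of freedom against either of them was 49.5 to 59.8, while iron-loaded mice 2 and 3 gave 5.97 to 5.98 and pairs of control mice 18.5 to 35.9, so values are given per mouse. Summed hepatocyte markers overlapped between the diets, at 138844 to 150138 CPM (counts divided by the library total, times 1000000) in control and 108637 to 150652 CPM in iron-loaded mice in Trad-KAPA. This sum was mostly Alb, at 119514 to 132418 CPM in control mice. In Trad-KAPA 0 of the 5 measured passed edgeR's test, with 0 at an unadjusted p below 0.05 and 0 called by DESeq2. In 3’-LEXO the sums were 54897 to 69483 and 42701 to 64469 CPM, with 0 passing, 1 at an unadjusted edgeR p below 0.05 and 0 called by DESeq2. Ttr was lower in iron-loaded mice without overlap in either kit, at 4268 to 5465 and 2241 to 4071 CPM in Trad-KAPA. Summed Kupffer cell and macrophage markers were at 309 to 493 CPM in control and 561 to 609 CPM in iron-loaded mice in Trad-KAPA, with 2 of 7 (Vsig4 and Marco) called higher, and at 833 to 1085 and 1095 to 1340 CPM in 3’-LEXO, with Marco alone called, so these sums did not overlap in either kit. The defining Kupffer marker Clec4f overlapped, at 125 to 202 and 183 to 187 CPM in Trad-KAPA, and the part of these cells in the results below was not tested. In Trad-KAPA cholangiocyte markers summed to 6.04 to 6.56 CPM in control and 4.71 to 5.97 CPM in iron-loaded mice, endothelial markers to 185 to 251 and 214 to 263, stellate cell markers to 142 to 226 and 168 to 205, lymphocyte markers to 2.53 to 4.59 and 2.64 to 4.17 and red cell genes to 20.1 to 151 and 16.4 to 28.8 CPM. Of these, Lyve1 was called higher and Des lower. In 3’-LEXO the sums of 3 of these lists did not overlap and were lower in iron-loaded mice, with cholangiocyte markers at 12.4 to 16.2 and 9.91 to 11.5, endothelial markers at 244 to 297 and 206 to 220 (Lyve1 called higher and Stab2 lower) and stellate cell markers at 169.9 to 185 and 151 to 156 CPM in control and iron-loaded mice. Their part in the results was not tested either. In bulk tissue fewer cells of a type and less RNA per cell cannot be told apart.

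Levels of different genes were compared in Trad-KAPA only, as CPM per kilobase of exon (CPM per kb) in the 3 control mice. The length was that of all annotated exons of a gene, merged over its transcripts. It was 908 bases for Gstp3 and 2013 for Mgst1, whose longest coding transcripts had 708 and 1167. For Gsta3 it was 4344 against 1457, and for Gstz1 5088 against 1656 bases. The order of genes and the counts of members at a level depend on this length. By this measure the most abundant member was Gstp3, a pi-class transferase, at 758 ± 53.7 CPM per kb (SD, n = 3), and its 3 mice lay at 701 to 807. Next came the microsomal transferase Mgst1 at 569.8 ± 99.2 and the amine sulfotransferase Sult3a1 at 522 ± 126 CPM per kb, whose ranges overlapped each other but not that of Gstp3. Each of the 3 families was represented among the next: the mu-class Gstm1 was at 312 ± 46, the phenol sulfotransferase Sult1a1 at 248 ± 28.3 and Ugt2b36, a member of the UGT group that handles steroids, at 201 ± 29 CPM per kb. From Sult1a1 through Ugt2b36, Sult3a2, Sult2a1 and the alpha-class Gsta3 the ranges of neighbours overlapped, so their order is not fixed by these mice.

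**Figure D1:**
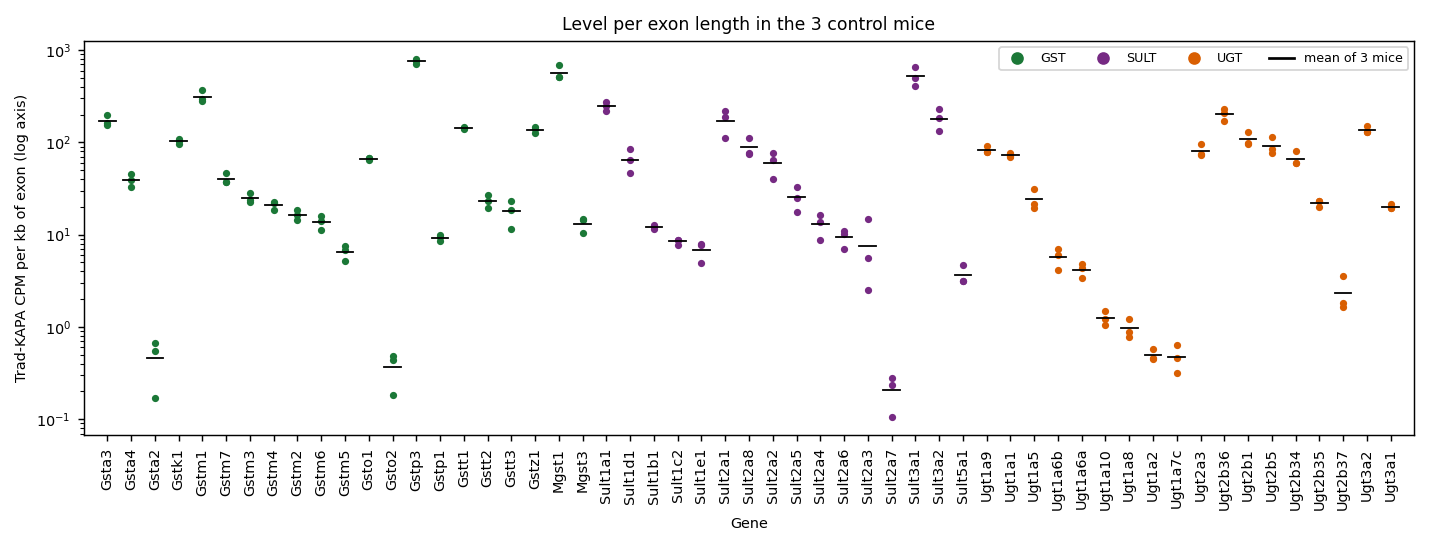
Level of each member in the 3 control mice of Trad-KAPA, in CPM per kb of exon on a log axis, grouped by family and subfamily (points, mice; bars, means; members with a mouse at 0 left out). Within a subfamily the levels spread widely, as from Gstp3 at 758 to Gstp1 at 9.26 CPM per kb, or from Ugt1a9 at 83.1 to Ugt1a7c at 0.475 CPM per kb. Gstp1 and the Ugt1a genes share stretches with other genes, and the part of this in their levels was not tested.

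In all, 14 of the 63 members were at 100 CPM per kb or more, 38 at 10 or more and 14 under 1. The gap within classes was wide. Gstp1 stood at 9.26 ± 0.765 CPM per kb beside Gstp3, and Gsta2 at 0.464 ± 0.26 beside Gsta3 at 171 ± 22.9 CPM per kb. Of the 50-base stretches of Gstp1 and Gsta2, 62.3% and 64.2% occur in other genes, beside 0% for Gstp3 and Gsta3. The counts were of uniquely mapped reads, and the part of shared sequence in these gaps was not tested. The zeta-class Gstz1, which isomerizes maleylacetoacetate in tyrosine breakdown, was at 138 ± 8.84, the theta-class Gstt1 at 143 ± 4.33, and Ugt3a2, whose family uses other sugar donors than glucuronic acid, at 137 ± 11.8 CPM per kb. Among the Ugt1a genes, Ugt1a9 at 83.1 ± 7.73 and Ugt1a1, the bilirubin-conjugating enzyme, at 72.1 ± 3.95 CPM per kb were highest. Divided by the length of their own exons only, they stood at 207 ± 19.3 and 176 ± 9.62 CPM per kb. This division took all counts of a gene and holds only if no read within the shared exons was counted. Whether such reads were counted is not given in the sources used here.

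As a share of all counts the 63 genes made up 0.895% of the control and 0.756% of the iron-loaded Trad-KAPA libraries. Their summed CPM was 8725, 8128 and 9985 in control mice 1, 2 and 3 and 7124, 7675 and 7876 in iron-loaded mice 1, 2 and 3. In 3’-LEXO it was 8787, 9600.1 and 10165 against 7297, 8415 and 8201 CPM. In each kit the iron-loaded mice were all below the control mice. No test was made on these sums.

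The effect of the iron-loaded diet was asked of each gene in each kit with edgeR's quasi-likelihood test, adjusted over all genes tested. Most members did not pass it, and those that did moved in both directions. In Trad-KAPA 53 members had enough counts to be tested, of which 7 were higher and 12 lower in iron-loaded mice (13.2 and 22.6% of those tested). Over all 13151 genes tested, 8.77% were called higher and 8.37% lower. In 3’-LEXO 50 members were tested, and 4 were higher and 8 lower (8 and 16%), where 3.17% of all 13301 genes tested were called higher and 2.92% lower. The members' shares of higher and of lower calls were thus above these background shares in both kits, a description with no test, and the members' median log2 fold changes were -0.29 (Trad-KAPA) and -0.25 (3’-LEXO), beside 0.02 and 0.01 over all genes tested.

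All 12 members called in 3’-LEXO were also called in Trad-KAPA and in the same direction. Over the 12229 genes tested in both kits, 639 (5.23%) were called in both in the same direction. Of all genes tested in 3’-LEXO, 422 were called higher and 389 lower, so most 3’-LEXO calls over all genes were shared as well. The members called in both kits were 12 of the 47 tested in both. The 4 that were higher in both were Gstm3, Gstp1, Sult1e1 and Ugt2b35, and the 8 that were lower were Gstk1, Gsto1, Gstt3, Sult2a8, Sult3a1, Sult5a1, Ugt2b1 and Ugt2b37. Another 7 passed in Trad-KAPA alone: Gsta2, Gstm1 and Ugt1a6b were higher, and Gstp3, Gstt1, Ugt1a5 and Ugt3a1 lower. The kits share their mice, so they repeat the library and not the animals. Each p-value here measures the spread between 3 mice of a cage.

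**Figure D2:**
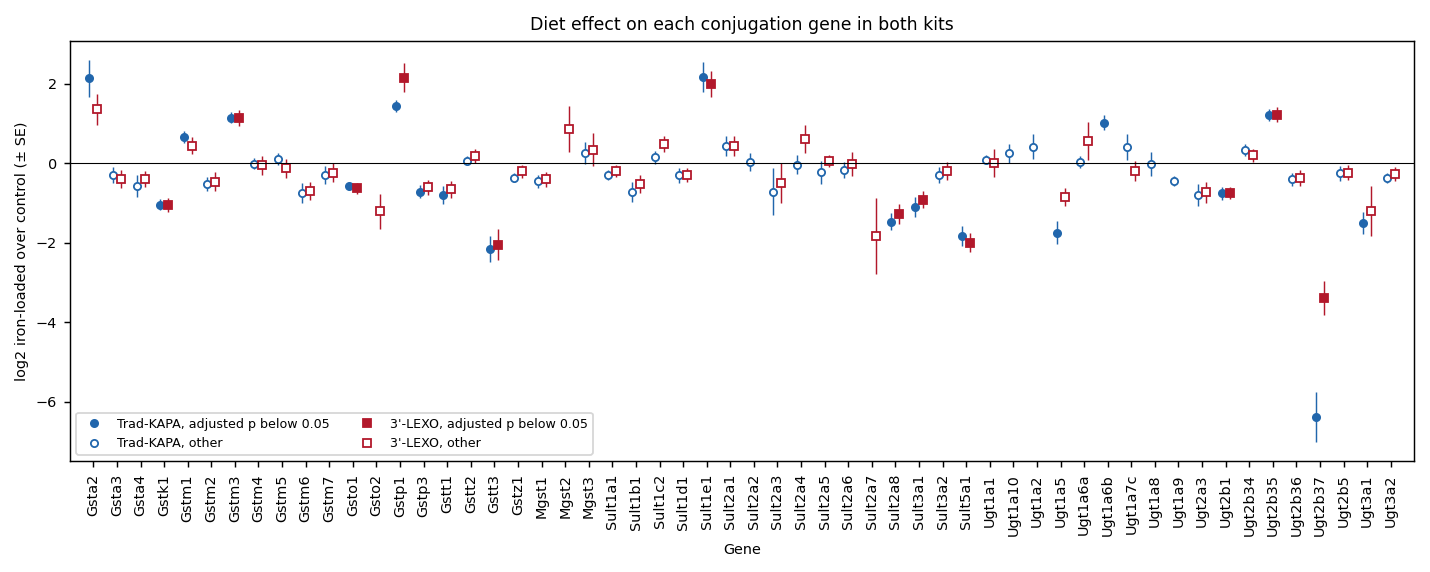
Log2 fold change of iron-loaded over control mice for each member tested, with its SE, in Trad-KAPA (circles) and 3’-LEXO (squares), with filled symbols at an adjusted p below 0.05. The fitted values of both kits lie close together for most genes, with 4 genes filled above 0 and 8 filled below 0 in both kits.

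By family, 4 of 20 GST genes tested in Trad-KAPA were higher and 5 lower, with a median log2 of -0.33, and in 3’-LEXO 2 of 22 were higher and 3 lower, with a median of -0.31. Of 15 SULT genes tested in each kit, 1 was higher and 3 lower, with medians of -0.29 and -0.19. Of 18 UGT genes tested in Trad-KAPA, 2 were higher and 4 lower (median -0.14), and of 13 tested in 3’-LEXO, 1 was higher and 2 lower (median -0.27). Each family thus held calls in both directions.

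Among the GST genes, the mu-class Gstm3 (chr3:107963696-107969283) was higher in iron-loaded mice in both kits. Its Trad-KAPA level was 37.2, 29.9 and 31.5 CPM in control mice 1, 2 and 3 and 66.5, 80 and 83 CPM in iron-loaded mice 1, 2 and 3, and its 3’-LEXO level was 23.9, 33.3 and 17.6 against 51.5, 63.2 and 55.6 CPM. No iron-loaded mouse overlapped the control mice in either kit, and the log2 fold changes were 1.15 ± 0.14 (SE, adjusted p = 0.00329) and 1.14 ± 0.21 (SE, adjusted p = 0.0158). In 3’-LEXO the call was lost when control mouse 1 or 3 was left out. Of the 50-base stretches of Gstm3, 28.8% occur in other genes, and 0% of those in its last 300 bases. In the same cluster Gstm1, the most abundant mu-class gene, was at 537, 411 and 431 against 665, 795 and 813 CPM in Trad-KAPA, where the groups were apart and the log2 fold change was 0.66 ± 0.15 (SE, adjusted p = 0.0248), and at 512, 470.0 and 379 against 469.6, 777 and 672 CPM in 3’-LEXO, where they overlapped. The Trad-KAPA call of Gstm1 was lost without control mouse 2 or 3 or iron-loaded mouse 2 or 3. Gstm7, second in level among the mu-class genes, overlapped at 74.4, 59.9 and 59 against 36.7, 60.9 and 66.5 CPM in Trad-KAPA, with -0.30 ± 0.22 (SE, adjusted p = 0.381). The 5 mu-class genes other than Gstm3 and Gstm1 did not pass in either kit, with log2 values from -0.75 to 0.10 in Trad-KAPA.

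Gstp1 (chr19:4035407-4037985), the pi-class transferase with a low counted level, rose in both kits. It was at 15.4, 13.1 and 14.5 CPM in control mice 1, 2 and 3 and 50.7, 35.6 and 36.7 CPM in iron-loaded mice 1, 2 and 3 in Trad-KAPA and at 6.72, 6.87 and 7.23 against 54.7, 16.4 and 26.5 CPM in 3’-LEXO. Every iron-loaded mouse was above every control mouse and mouse 1 was highest in both kits. Its log2 fold changes were 1.44 ± 0.14 (SE, adjusted p = 0.00149) and 2.16 ± 0.36 (SE, adjusted p = 0.0109) in that order of kits, and without iron-loaded mouse 1 it was 1.30 and 1.59. Leaving out any of the control mice ended the 3’-LEXO call. The abundant pi-class gene Gstp3 went the other way in Trad-KAPA, at 695, 636 and 733 against 355, 483 and 479.9 CPM, with a log2 fold change of -0.71 ± 0.17 (SE, adjusted p = 0.0258), which was lost without any single control mouse or iron-loaded mouse 3. In 3’-LEXO it was at 265, 304 and 266 against 145, 208 and 214 CPM, also without overlap, with -0.61 ± 0.19 (SE, adjusted p = 0.0819).

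Gstp2 nearly repeats Gstp1, so reads in the stretches they share cannot be assigned to either gene, and the deposited counts were of uniquely mapped reads. The coding sequences of both are 630 bases long without the stop codon and differ in 12 bases, with none of the differences in the last 300 coding bases. Their first 60 coding bases in the GENCODE transcripts, with the differing bases in capitals, show where reads can separate them.
Gstp1: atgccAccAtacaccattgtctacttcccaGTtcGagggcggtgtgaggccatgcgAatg
Gstp2: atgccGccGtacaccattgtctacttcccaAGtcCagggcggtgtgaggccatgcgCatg
Gstp3 is far more distant, with 178 of 630 coding bases different from Gstp1. Every stretch of 50 bases in the last 300 bases of the Gstp1 and Gstp2 transcripts occurs in another gene, and none does in Gstp3. Gstp2 held 0 to 12 counts in a Trad-KAPA library and 0 to 4 in a 3’-LEXO library and was not tested.

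The alpha-class gene Gsta2, singled out after its values were seen, was low and rose in Trad-KAPA, from 0.785, 0.201 and 0.651 to 1.71, 3.35 and 2.59 CPM, with a log2 fold change of 2.14 ± 0.47 (SE, adjusted p = 0.0205). In 3’-LEXO it was at 4.57, 2.43 and 5.6 against 6.29, 14.1 and 13.5 CPM, also without overlap, with 1.36 ± 0.38 (SE, adjusted p = 0.0643). The Trad-KAPA call ended without control mouse 2 or 3 or iron-loaded mouse 2 or 3, and 64.2% of its 50-base stretches also occur in other genes, chiefly Gsta1. The abundant Gsta3 overlapped between diets at 704, 669 and 856 against 476, 704 and 726 CPM in Trad-KAPA, with -0.29 ± 0.21 (SE, adjusted p = 0.352). Gsta4, which conjugates aldehydes from lipid peroxidation, overlapped as well, at 57.2, 41.9 and 49.4 against 20.2, 41.9 and 42.8 CPM, with -0.56 ± 0.28 (SE, adjusted p = 0.191).

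Gstk1 (chr6:42245935-42250447), the kappa-class enzyme of mitochondria and peroxisomes, fell by a like amount in both kits. It was at 151, 141 and 159 CPM in control mice 1, 2 and 3 and 65.7, 82.7 and 82 CPM in iron-loaded mice 1, 2 and 3 in Trad-KAPA and at 459.5, 391 and 433 against 172, 234 and 238 CPM in 3’-LEXO, without overlap. Its log2 fold changes were -1.04 ± 0.14 (SE, adjusted p = 0.00479) and -1.05 ± 0.19 (SE, adjusted p = 0.0141). The omega-class Gsto1 (chr19:47854970-47864790), which reduces dehydroascorbate, fell by less, from 137, 129.7 and 139 to 103, 94.3 and 88 CPM in Trad-KAPA and from 129, 152 and 136 to 104, 89 and 89.7 CPM in 3’-LEXO. The groups were apart in both kits, with log2 fold changes of -0.58 ± 0.10 (SE, adjusted p = 0.0105) and -0.62 ± 0.14 (SE, adjusted p = 0.0307). In 3’-LEXO the Gsto1 call held only when iron-loaded mouse 1 was the one left out, and that of Gstk1 ended without control mouse 1 or 3.

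The theta-class Gstt3 (chr10:75774115-75781414) fell most among the GST genes that passed. Its level was 71.5, 44.7 and 89.3 CPM in control mice 1, 2 and 3 and 9.64, 19.7 and 18.9 CPM in iron-loaded mice 1, 2 and 3 in Trad-KAPA, and 346, 227 and 478 against 46, 105 and 115 CPM in 3’-LEXO. Control mouse 2 was the lowest of its group and iron-loaded mouse 1 the lowest of all in both kits, and no values overlapped. The log2 fold changes were -2.16 ± 0.34 (SE, adjusted p = 0.00735) and -2.04 ± 0.38 (SE, adjusted p = 0.0169), the latter lost without control mouse 1 or 3. Of the 50-base stretches of Gstt3, 26% occur in 1 other gene, and 0% of those in its last 300 bases. The neighbouring Gstt1 was at 225, 212 and 218 against 86.5, 151 and 158 CPM in Trad-KAPA, again with no overlap and with iron-loaded mouse 1 lowest. Its log2 fold change was -0.79 ± 0.23 (SE, adjusted p = 0.047), a call that held in 1 of the 6 fits that leave out a mouse, the one without iron-loaded mouse 1. In 3’-LEXO Gstt1 was at 170.1, 198 and 193 against 85, 141 and 143 CPM, also apart, with -0.65 ± 0.22 (SE, adjusted p = 0.0985). Gstt2, in the same cluster, overlapped at 111, 96.7 and 80.5 against 102, 106 and 109 CPM. Neither Gstz1 nor Mgst1 passed. Gstz1 was at 712, 651 and 739 against 576, 562 and 578 CPM in Trad-KAPA, where the groups were apart but the adjusted p was 0.0674. Mgst1 was at 1023, 1041 and 1377 against 860.5, 883 and 909 CPM in Trad-KAPA, with an adjusted p of 0.0927, and was likewise lower in every iron-loaded mouse in 3’-LEXO, with an adjusted p of 0.225. Mgst3, another membrane-bound transferase, overlapped at 16.1, 15.7 and 11.6 against 10.6, 22.9 and 20.8 CPM in Trad-KAPA, with 0.27 ± 0.28 (SE, adjusted p = 0.538).

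Among the sulfotransferases, Sult1e1 (chr5:87575969-87591594), which inactivates estrogens, rose most. It was at 9.79, 6.16 and 9.69 CPM in control mice 1, 2 and 3 and 68.6, 24.4 and 29.5 CPM in iron-loaded mice 1, 2 and 3 in Trad-KAPA and at 21.5, 15.5 and 26.4 against 141, 62.9 and 62.5 CPM in 3’-LEXO. Iron-loaded mouse 1 was more than 2 times as high as the other mice of its diet, which themselves lay above all control mice. The log2 fold changes were 2.16 ± 0.38 (SE, adjusted p = 0.00988) and 1.99 ± 0.33 (SE, adjusted p = 0.0101), and without iron-loaded mouse 1 they were 1.62 and 1.52, past the threshold in both kits. In 3’-LEXO the call ended without control mouse 2.

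The 3 sulfotransferases that fell were Sult2a8, Sult3a1 and Sult5a1. Sult2a8 (chr7:14410686-14446769), of the group that sulfates hydroxysteroids and bile acids, was at 245, 255 and 369.7 CPM in control mice 1, 2 and 3 and 90.8, 118 and 122 CPM in iron-loaded mice 1, 2 and 3 in Trad-KAPA and at 103, 119 and 159.6 against 38.7, 67 and 59.2 CPM in 3’-LEXO. The groups were apart in both kits, with log2 fold changes of -1.47 ± 0.22 (SE, adjusted p = 0.00623) and -1.27 ± 0.25 (SE, adjusted p = 0.021). Sult3a1 (chr10:33857721-33879532), the most abundant sulfotransferase, was at 475, 574 and 761 against 219, 323 and 349 CPM in Trad-KAPA and 403, 654 and 640.4 against 274, 330.3 and 333 CPM in 3’-LEXO. It did not overlap in either, with -1.09 ± 0.25 (SE, adjusted p = 0.0224) and -0.91 ± 0.22 (SE, adjusted p = 0.0392), and lost its call without control mouse 2 or 3 in both kits. Sult5a1 (chr8:123140192-123158315), whose substrates are little known, was at 14, 13.8 and 20.9 against 6.35, 4.17 and 3.95 CPM in Trad-KAPA and 12.6, 18.7 and 15.6 against 5.44, 3.08 and 3.64 CPM in 3’-LEXO. No iron-loaded mouse came near a control mouse in either kit. Its log2 fold changes of -1.83 ± 0.25 (SE, adjusted p = 0.00471) and -2.00 ± 0.24 (SE, adjusted p = 0.00257) kept their side of the threshold in all 6 fits that left out a mouse in each kit. In 3’-LEXO the call of Sult2a8 ended without control mouse 2 or 3 or iron-loaded mouse 3, and that of Sult3a1 also without iron-loaded mouse 2 or 3.

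The remaining abundant sulfotransferases did not pass. Sult1a1 was at 417, 331 and 372 against 309, 317 and 328 CPM in Trad-KAPA, with -0.30 ± 0.12 (SE, adjusted p = 0.128), its iron-loaded mice just below the control mice. Sult2a1, which sulfates dehydroepiandrosterone and bile acids, was at 192, 114 and 220.5 against 323, 212 and 219.9 CPM, with 0.44 ± 0.25 (SE, adjusted p = 0.262), and control mouse 2 was lowest. Sult3a2 was at 123.5, 169 and 213 against 159, 138 and 141 CPM in Trad-KAPA, with -0.29 ± 0.20 (SE, adjusted p = 0.341). Sult1d1 was at 208, 114 and 158 against 129.8, 138 and 140.0 CPM, with -0.30 ± 0.20 (SE, adjusted p = 0.31), and both overlapped between diets in both kits. Sult2a8 is the gene of the Sult2a cluster with the least shared sequence among those tested in Trad-KAPA, as 0% of its 50-base stretches occur in another gene, beside 62.1% for Sult2a2 and 33.2% for Sult2a1.

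In the UGT family outside the Ugt1a locus, Ugt2b35 rose and Ugt2b1, Ugt2b37 and Ugt3a1 fell. Ugt2b35 (chr5:87000860-87013275) was at 76.8, 67.6 and 77.9 CPM in control mice 1, 2 and 3 and 226, 156 and 165 CPM in iron-loaded mice 1, 2 and 3 in Trad-KAPA and at 26.9, 39.6 and 37.3 against 104, 74.9 and 74.9 CPM in 3’-LEXO. All iron-loaded mice lay above the control mice, and the log2 fold changes of 1.22 ± 0.15 (SE, adjusted p = 0.00329) and 1.23 ± 0.19 (SE, adjusted p = 0.00786) passed in all 6 fits without a mouse in each kit. Ugt2b1 (chr5:86916638-86926530) fell from 245, 254 and 331 to 174, 171 and 172 CPM in Trad-KAPA and from 131, 164 and 162 to 92.1, 101 and 92.2 CPM in 3’-LEXO. It showed no overlap, with log2 fold changes of -0.76 ± 0.15 (SE, adjusted p = 0.016) and -0.74 ± 0.15 (SE, adjusted p = 0.0245), lost without iron-loaded mouse 3 in both kits and without control mouse 2 or 3 in 3’-LEXO.

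Ugt2b37 (chr5:87240493-87254804) was nearly absent from the iron-loaded Trad-KAPA libraries. In Trad-KAPA it had 52, 101 and 48 counts in control mice 1, 2 and 3 and 0, 1 and 1 counts in iron-loaded mice 1, 2 and 3. The 3’-LEXO libraries held 60, 108 and 70 counts against 4, 4 and 11. The summed iron-loaded level was 0.0106 of the control level in Trad-KAPA (exact 95% counting interval 0.00127 to 0.0388) and 0.0966 in 3’-LEXO (0.0572 to 0.154), where these intervals cover counting error only. The adjusted p was 0.00149 and 0.00321. The fitted log2 values of -6.39 and -3.39 depend on the prior count and are not read as sizes, and without iron-loaded mouse 3 the 3’-LEXO value was -4.11. Its coding sequence shares 94.7% of 1590 bases with the abundant Ugt2b5, named for this likeness after its values were seen, which did not pass in either kit and stood at 156, 144 and 215 against 139, 159 and 156 CPM in Trad-KAPA, and 18.3% of the 50-base stretches of Ugt2b37 occur in other genes.

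Ugt3a1, which transfers N-acetylglucosamine, was at 52.5, 57.5 and 51.8 against 10.8, 21.9 and 26.7 CPM in Trad-KAPA, without overlap, with -1.50 ± 0.29 (SE, adjusted p = 0.0134), lost without control mouse 2. In 3’-LEXO it was at 0.643, 0.93 and 1.35 against 0.153, 0.932 and 0.273 CPM, which overlapped, and did not pass. The abundant Ugt2b36 overlapped, at 425, 350.1 and 468 against 286, 348 and 355 CPM, with -0.40 ± 0.17 (SE, adjusted p = 0.129). Ugt2a3 was lower in every iron-loaded mouse in both kits, at 153, 158 and 203 against 61.3, 119 and 129.9 CPM in Trad-KAPA, but did not pass, with -0.79 ± 0.28 (SE, adjusted p = 0.0868) and with iron-loaded mouse 1 lowest. Ugt3a2 was also lower in every iron-loaded mouse of Trad-KAPA, at 404, 406 and 469 against 363, 332 and 352 CPM, with -0.36 ± 0.12 (SE, adjusted p = 0.0746).

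**Figure D3:**
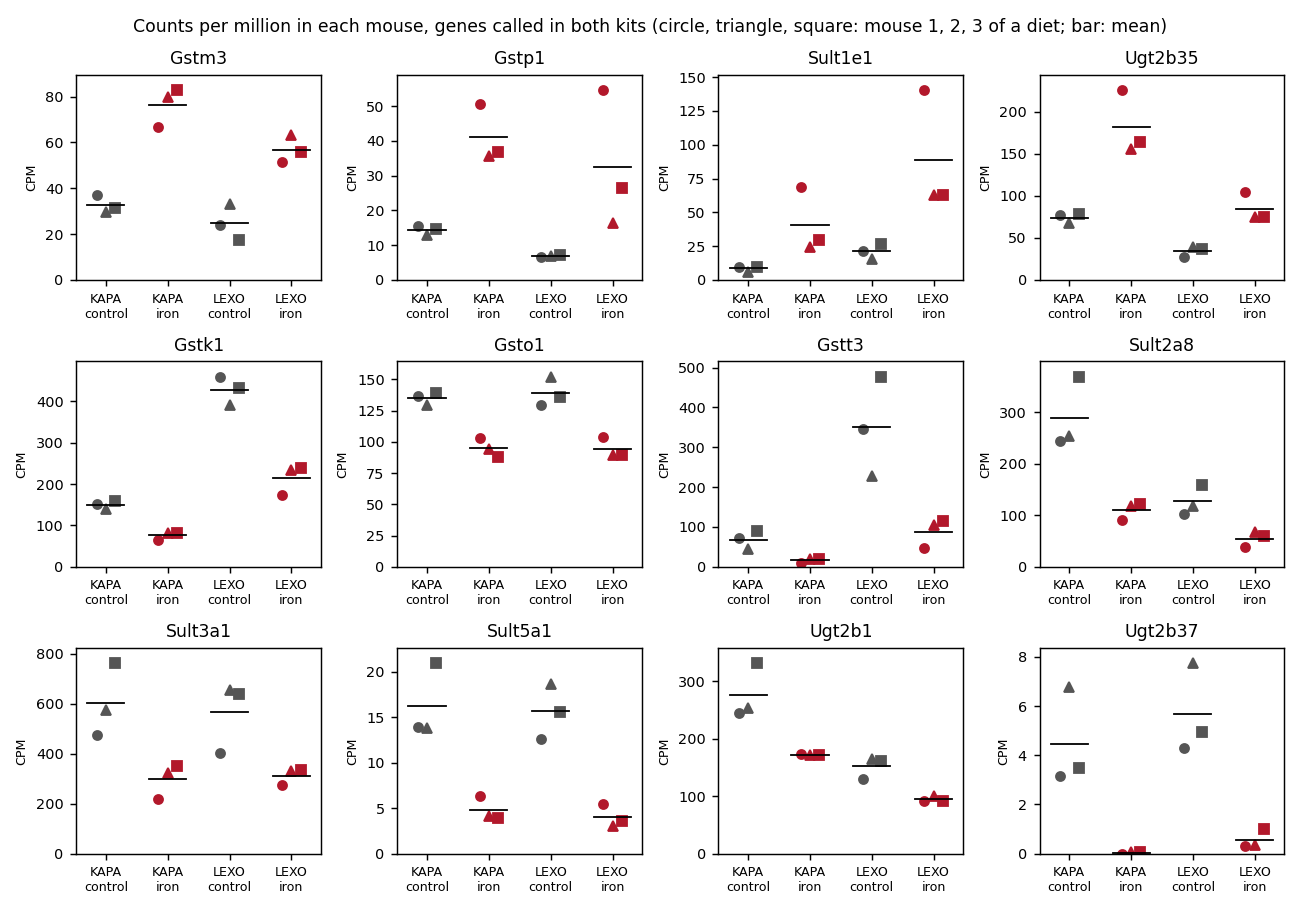
CPM of the 12 members called in both kits, in each library (grey, control; red, iron-loaded; circle, triangle and square, mouse 1, 2 and 3 of a diet; bar, mean; each axis starts at 0). In no panel do the iron-loaded and control mice of a kit overlap, which adds nothing to the calls by which the panels were chosen. Of all genes tested in Trad-KAPA, 24.7% had all iron-loaded mice above all control mice and 16.6% had them all below. Iron-loaded mouse 1 is the highest of its group for Gstp1, Sult1e1 and Ugt2b35 in both kits.

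Within the Ugt1a locus the diet effect could be read in Trad-KAPA only for most genes, and 2 of 9 passed there. Ugt1a5 was at 42.8, 69.5 and 47.3 CPM in control mice 1, 2 and 3 and 10, 18.9 and 20.5 CPM in iron-loaded mice 1, 2 and 3, with no overlap and a log2 fold change of -1.75 ± 0.29 (SE, adjusted p = 0.00864). In 3’-LEXO it was at 11.9, 12.9 and 9.78 against 4.83, 7.55 and 7.54 CPM, also apart, with -0.85 ± 0.22 (SE, adjusted p = 0.0516). Ugt1a6b, of the pair that conjugates simple phenols, rose in Trad-KAPA from 16.8, 9.85 and 14.2 to 30.3, 28.9 and 28.2 CPM, with 1.02 ± 0.18 (SE, adjusted p = 0.0105), and in 3’-LEXO it was at or under 2 counts in every library, so no fold is given. Both Trad-KAPA calls held in all 6 fits without a mouse. Of the 50-base stretches of the longest coding transcript of Ugt1a6b, 80.7% occur in other genes, as do 100% of those of Ugt1a6a. Over all annotated exons of each gene, 60.6% of the bases of Ugt1a6b and 50.3% of those of Ugt1a6a lie in exons of other genes. Which part the counts of Ugt1a6b rest on is not given in the sources used here.

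The other 7 did not pass. Ugt1a1 overlapped at 170.2, 153 and 158 against 205, 167 and 168 CPM, with 0.09 ± 0.11 (SE, adjusted p = 0.576), and Ugt1a6a at 20.6, 18.6 and 14.5 against 23, 18.2 and 16.4 CPM, with 0.03 ± 0.15 (SE, adjusted p = 0.906). Ugt1a9 was lower in each iron-loaded mouse, at 172, 173 and 202 against 165, 127 and 132 CPM, with -0.44 ± 0.13 (SE, adjusted p = 0.0531), just outside the threshold. The remaining Ugt1a10, Ugt1a8, Ugt1a2 and Ugt1a7c were under 4 CPM in every Trad-KAPA library, with log2 values from -0.02 to 0.42. Summed over the locus, Trad-KAPA held 430.5, 430.7 and 445 CPM in control and 442, 372 and 375 CPM in iron-loaded mice.

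Whether the diet effect differed between the kits was asked with an interaction term in a fit of the 12 libraries together. This fit did not pair the libraries made from the same mouse. Of 56 members tested 0 passed, as did 0% of all 14384 genes tested with edgeR, where 402 genes had an unadjusted p below 0.05. Of the members 2 had an unadjusted edgeR p below 0.05, namely Ugt2b37 and Ugt1a5, both with an adjusted p of 1.00. With the mouse as a block, which pairs the kits, 0 members and 5 of all genes passed, and 5 members had an unadjusted p below 0.05. The lowest edgeR values of members there were those of Ugt1a5 (unadjusted p = 0.000204, adjusted p = 0.155) and Ugt2b37 (unadjusted p = 0.00122, adjusted p = 0.296). In the fit without the block, the kits' log2 fold changes differed by 0.72 ± 0.43 for Gstp1 (3’-LEXO minus Trad-KAPA, SE). For Gsta2 they differed by -0.79 ± 0.68 and for Ugt1a5 by 0.89 ± 0.39. A difference that missed the threshold is not shown to be absent. For 38 of the 56 members the fitted difference was below 0.25 in size.

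Most of these genes lie in clusters, some with calls in both directions and others with calls in one. Of the 63 members 51 lie in 10 clusters. The Ugt2b, Ugt2a and Sult1 cluster at chr5:86889767-87591594 holds 11 members over 702 kb, with Ugt2b35 and Sult1e1 higher and Ugt2b1 and Ugt2b37 lower in both kits and 6 others tested that did not pass. Ugt2b1 and Ugt2b35, which moved in opposite directions, are neighbours among the members there. In the Gstm cluster at chr3:107895821-108044894, Gstm3 and Gstm1 were higher in Trad-KAPA and 5 of 7 did not pass. In the Sult2a cluster at chr7:13623967-14494230, Sult2a8 was the single call among 7 genes tested in Trad-KAPA. The Gstp cluster at chr19:4035407-4059569 held Gstp1 higher and Gstp3 lower, and the Gstt cluster at chr10:75774115-75837424 held Gstt3 and Gstt1, both lower in Trad-KAPA, beside Gstt2, which did not pass.

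**Figure D4:**
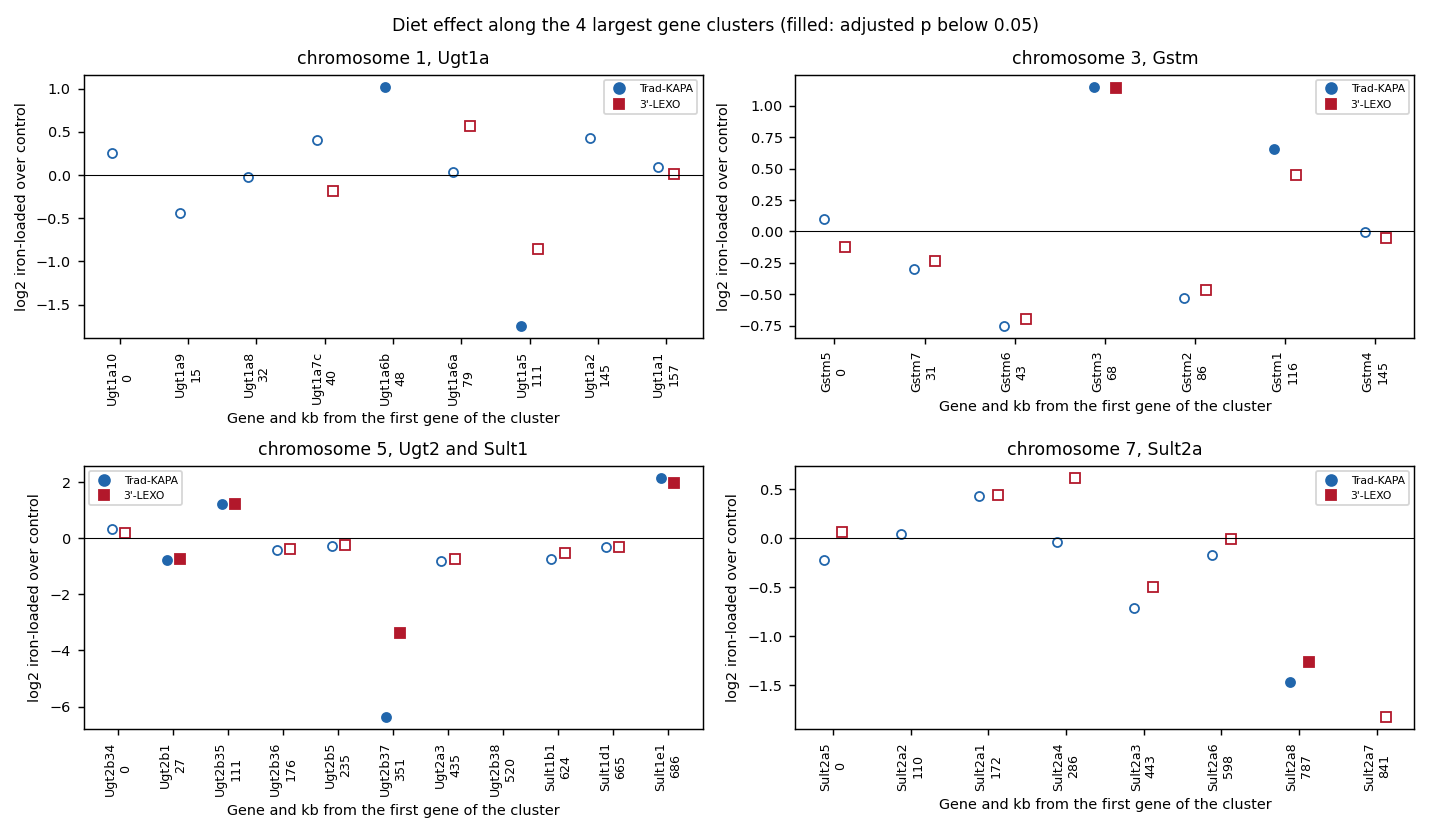
Log2 fold change of iron-loaded over control mice for the members of the 4 largest clusters, in gene order, with the distance of each gene from the first in kb (circles, Trad-KAPA; squares, 3’-LEXO; filled, adjusted p below 0.05). On chromosome 5, the neighbours Ugt2b1 and Ugt2b35 lie on opposite sides of 0, and on chromosome 1 most Ugt1a genes have no 3’-LEXO point.

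The same RNA gave very different Ugt1a counts in the kits. The level of each gene was compared between kits with the mouse as a block, and a call needed an adjusted p below 0.05 and a fold of 2 or more. Of 56 members tested, 16 were lower and 10 higher in 3’-LEXO (28.6 and 17.9%). Over all 14384 genes tested, 21.2% were at least 2-fold lower and 22.7% at least 2-fold higher. Of the 16 lower members 8 were Ugt1a genes, and without the Ugt1a genes 8 of 47 were lower (17%), a share below the background.

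Summed over the 6 mice, Ugt1a9 had 14215 counts in Trad-KAPA against 47 in 3’-LEXO. Its depth-corrected 3’-LEXO level was 0.378% of the Trad-KAPA level (exact 95% counting interval 0.278 to 0.503%). Ugt1a1 had 14949 and 178 counts, or 1.36% (1.17 to 1.58%), and Ugt1a6b 1862 and 4 counts, or 0.246% (0.0669 to 0.63%). These 3 genes were nearly absent from the 3’-LEXO counts. Ugt1a6a kept 7.62% and Ugt1a5 26.2% of their Trad-KAPA level, and Ugt1a10, Ugt1a8 and Ugt1a2 had 3, 7 and 2 counts in the 6 3’-LEXO libraries. Ugt1a7c, the gene with an annotated 3′ end of its own, was the one Ugt1a gene that was not lower, with 211 and 252 counts and a log2 ratio of 0.48 ± 0.19. The whole locus summed to 430.5 to 445 CPM in Trad-KAPA and 18.4 to 20.6 CPM in 3’-LEXO in control mice. The shared 3′ stretch of these genes is printed in capitals above, and whether the counting left out reads that fit several genes is not given in the sources used here.

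**Figure D5:**
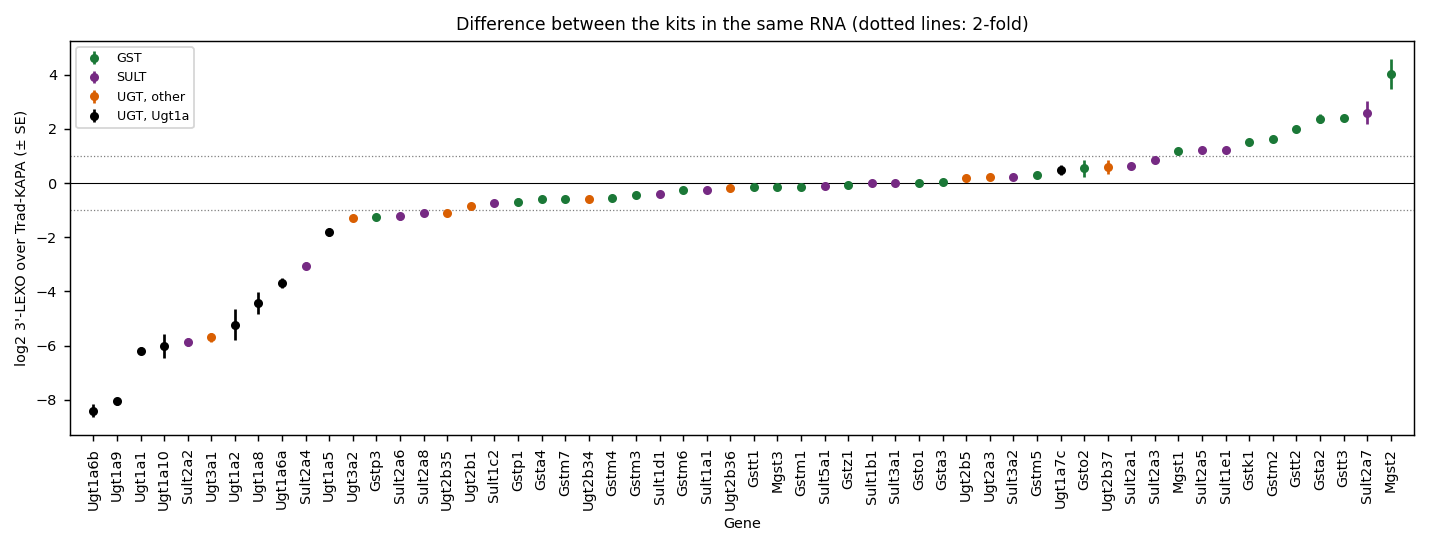
Log2 ratio of 3’-LEXO to Trad-KAPA for each of the 56 members tested, in order of size, with its SE (black, Ugt1a; other colours, families; dotted lines, 2-fold). Of the 9 Ugt1a genes 8 lie below the lower dotted line, from Ugt1a5 at -1.82 to Ugt1a6b at -8.40, and ratios of genes with few counts in one kit depend on the prior count.

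Across the genome, 55 other protein-coding genes tested had a last exon shared in whole with another gene on the same strand. Their median log2 ratio of 3’-LEXO to Trad-KAPA was -1.32, and 30 of the 55 (54.5%) were at least 2-fold lower. Among 12192 protein-coding genes with no shared last exon the median was -0.07 and 21.1% were at least 2-fold lower. The Ugt1a median was -5.23. These are descriptions of gene groups, without a test.

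Outside the locus, the low 3’-LEXO members were singled out after their values were seen. Sult2a2 had 4082 counts in Trad-KAPA and 60 in 3’-LEXO, or 1.68% of the Trad-KAPA level (1.28 to 2.17%), and 76.9% of the 50-base stretches in its last 300 bases occur in other genes, Sult2a1 first among them. Ugt3a1 had 3287 and 56 counts, or 1.95% (1.47 to 2.54%), and 0% of the stretches in its last 300 bases occur elsewhere. Sult2a4 had 1139 and 119 counts, or 11.9% (9.81 to 14.4%), with 36.7% of its end shared. Gstp1, with the whole end shared, had a log2 ratio of -0.69 ± 0.14, and Gstp3, with no shared end, -1.26 ± 0.06. Sult2a5, with 72.5% of its end shared, was higher in 3’-LEXO (1.20 ± 0.11), as was Gsta2, with 40.6% shared (2.38 ± 0.17). These are single genes picked by their values, and how the ratio goes with the shared part of the end was not tested.

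Also by their values, those higher in 3’-LEXO were Gstt3, with a log2 ratio of 2.39 ± 0.06, Gsta2 with 2.38 ± 0.17, Gstt2 with 2.00 ± 0.06, Gstm2 with 1.63 ± 0.07, Gstk1 next, Sult1e1 with 1.22 ± 0.07, Sult2a5 with 1.20 ± 0.11 and Mgst1 with 1.18 ± 0.06. A pair of genes with very few Trad-KAPA counts, Mgst2 (4 against 68 counts over 6 libraries) and Sult2a7 (20 against 130), completed the 10. Of the 130 3’-LEXO counts of Sult2a7, 86 came from control mouse 3. Genes close to equal in both kits included Gsta3 (0.03 ± 0.06), Sult3a1 (0.00 ± 0.07) and Gsto1 (0.02 ± 0.06).

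Promoters, from 250 bases before to 50 bases after the RefSeq start on GRCm38.p6, were found for 55 members and searched on both strands for short motifs. The core of the antioxidant response element, searched as TGACNNNGC only, occurred in 4 of the 67 promoters of these genes (5.97%, against 12.39% of 32851 promoters in all), and in none of the 18 called in Trad-KAPA that had a promoter. Forms with G in place of the C were not searched, and the promoter of Gstp1, called higher in both kits, holds TGAGTCAGC. The xenobiotic response element core TNGCGTG, bound by the AhR, was in 3 of 67 (4.48% against 5.07%), among them 2 called genes, Gsta2, which rose, and Ugt1a5, which fell. The HNF1 half-site GTTAAT was in 14 of 67 (20.9% against 7.1%), with Ugt3a1 the one called gene among them, and the TATA box TATAAA in 12 (17.91% against 13.62%). The core GGCGCC of BMP-responsive promoters was in 1 of 67 (1.49% against 11.87%). Matches of different motifs were counted separately even where they overlapped, and a match is a description of letters only. The third promoter with the xenobiotic response element core was that of Sult1d1, which did not pass. The promoters of the 2 called genes with the xenobiotic element are shown because these genes moved in opposite directions, with matches to the listed motifs in capitals, for Gsta2 at chr9:78347096-78347395 on the reverse strand and for Ugt1a5 at chr1:88165762-88166061 on the forward strand.
Gsta2: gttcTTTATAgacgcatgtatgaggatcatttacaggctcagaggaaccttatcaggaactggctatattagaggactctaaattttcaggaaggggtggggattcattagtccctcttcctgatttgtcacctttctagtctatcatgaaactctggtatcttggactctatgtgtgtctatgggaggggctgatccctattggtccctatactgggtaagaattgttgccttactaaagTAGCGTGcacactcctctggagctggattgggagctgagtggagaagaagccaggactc
Ugt1a5: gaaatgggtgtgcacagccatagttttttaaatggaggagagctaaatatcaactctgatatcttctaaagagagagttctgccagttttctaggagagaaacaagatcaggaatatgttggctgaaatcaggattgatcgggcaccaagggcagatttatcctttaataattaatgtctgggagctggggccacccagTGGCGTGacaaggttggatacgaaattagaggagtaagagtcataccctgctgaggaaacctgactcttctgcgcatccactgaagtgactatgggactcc
In Gsta2 the element starts at base 242 of the 300 and the other capitals are the TATA letters on the opposite strand, and in Ugt1a5 the element starts at base 200.

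The supply of the 3 donors was described by lists of genes. For scale, the Trad-KAPA background was 8.77% of genes called higher and 8.37% lower. The 3’-LEXO background was 3.17% higher and 2.92% lower. No test set the calls of these short lists, or of the lists in the next paragraphs, against such shares. For UDP-glucuronate, 2 of 4 genes tested were higher in each kit and 0 lower, with a median log2 of 0.67 in Trad-KAPA and 0.72 in 3’-LEXO. Ugdh, which makes UDP-glucuronate from UDP-glucose, had 59.8 ± 7.34 CPM (SD, n = 3) in control and 95.8 CPM in iron-loaded mice in Trad-KAPA, with log2 fold changes of 0.61 ± 0.13 (adjusted p = 0.02) and 0.67 ± 0.16 (adjusted p = 0.0386). Slc35d1, which carries the sugar into the endoplasmic reticulum, rose by 1.01 ± 0.17 (adjusted p = 0.00847) and 1.22 ± 0.23 (adjusted p = 0.0169) on the log2 scale.

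For glutathione, 1 of 8 genes tested was higher and 1 lower in Trad-KAPA, and 1 was higher in 3’-LEXO. The cystine carrier Slc7a11 rose from 0.0425 to 1.20 CPM on average in Trad-KAPA (adjusted p = 0.00479) and from 0.0951 to 1.10 CPM in 3’-LEXO (adjusted p = 0.0245), where DESeq2 gave it no adjusted p. Oplah, which recovers glutamate from oxoproline, fell by 0.43 ± 0.11 in Trad-KAPA (adjusted p = 0.0308). The subunits of glutamate-cysteine ligase, Gclc and Gclm, had log2 values of -0.06 ± 0.29 and 0.02 ± 0.13 and did not pass. For PAPS, Papss2, the synthase of liver, fell by 0.66 ± 0.18 (adjusted p = 0.042) and the sulfate carrier Slc26a2 rose by 0.55 ± 0.14 (adjusted p = 0.0349) in Trad-KAPA, and in 3’-LEXO 0 of 6 passed with edgeR, while Papss2 alone had an unadjusted p below 0.05 there and was called by DESeq2.

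Of 10 other conjugating enzymes tested, 2 were higher and 1 lower in Trad-KAPA. The methyltransferase Nnmt, which acts on nicotinamide, fell from 18.3 ± 6.21 to 1.41 CPM, with log2 fold changes of -3.76 ± 0.35 (adjusted p = 0.00143) and -3.72 ± 0.42 (adjusted p = 0.00197). As3mt, which methylates arsenic, rose by 1.37 ± 0.22 (adjusted p = 0.00782) and 1.20 ± 0.20 (adjusted p = 0.0121), and Tpmt by 0.33 ± 0.09 in Trad-KAPA (adjusted p = 0.0427). Of 3 deconjugating enzymes tested 0 passed in either kit with edgeR, with 0 in Trad-KAPA and 1 in 3’-LEXO at an unadjusted p below 0.05 and 0 called by DESeq2. Of 9 regulators, Nr1i3, which encodes CAR, was lower in Trad-KAPA (-0.39 ± 0.11, adjusted p = 0.0487) and Nfe2l2, which encodes NRF2, higher in 3’-LEXO (0.61 ± 0.14, adjusted p = 0.0352), each in that kit alone, with -0.30 ± 0.16 (adjusted p = 0.273) and 0.28 ± 0.17 (adjusted p = 0.276) in the other. The receptor genes Ahr and Nr1i2 did not pass in either kit.

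Some members were too low for a test. Gsta1, Gstp2, Gstt4, Sult2b1, Sult4a1, Sult6b1 and Ugt2b38 were tested in neither kit, Gsto2, Mgst2 and Sult2a7 in 3’-LEXO only, and Sult2a2, Ugt1a2, Ugt1a6b, Ugt1a8, Ugt1a9 and Ugt1a10 in Trad-KAPA only. Sult4a1, known from the brain, had 1 count in the 6 Trad-KAPA libraries and 7, 9 and 5 counts in control against 1, 1 and 0 in iron-loaded mice in 3’-LEXO. Gsta1 had 3, 0 and 3 counts against 8, 14 and 16 in Trad-KAPA and at most 3 in any 3’-LEXO library. Gsto2 had 17, 17 and 6 counts against 4, 3 and 3 in Trad-KAPA, and Sult6b1 at most 3 counts in any library. Of the 53 members tested in Trad-KAPA, 8 (15.1%) had all iron-loaded mice above all control mice and 21 (39.6%) had them all below, beside 24.7% and 16.6% of the 13151 genes tested, which is given with no test.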

How the data were processed

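The authors aligned 50-bp single-end HiSeq4000 reads to GRCm38/mm10 with STAR 2.5.3a and deposited raw counts of uniquely mapped exonic reads per gene for 12 libraries. The counting program, annotation and strand setting are not given in the sources used here, and duplicates were kept. Gene IDs were matched to GENCODE M21 (73 of 27022 were not found), which gave symbols, exon lengths and transcripts. CPM was a count divided by the library total, times 1000000. Genes were tested with the quasi-likelihood test of edgeR 4.0.16 (limma 3.58.1, R 4.3.3) after TMM scaling and its default expression filter, in each kit alone for diet, over all 12 libraries for the interaction of diet and kit, and with the mouse as a block for the kit difference. Values were adjusted by Benjamini-Hochberg over all genes tested, with a threshold of 0.05. DESeq2 1.42.0, other size factors, filters, depths and left-out mice served as alternatives. The scripts were tested on simulated data. Nothing was rescaled for length except the CPM per kb. Shared stretches were counted as runs of 50 bases of a member's longest coding transcript found in transcripts of another gene.

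The genes described were those called in both kits, the most abundant 2 of each subfamily and all Ugt1a genes. Other members named with values were chosen after their values were seen. The members and all gene lists were chosen with earlier results of these data known. Each group held 3 libraries from separate mice, and same-numbered libraries of the kits came from the same mouse: their deviations from the group means correlated at r = 0.444 to 0.770 over 10326 genes.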

Additional observations from a re-analysis of the deposited data

How the results depend on the processing

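In Trad-KAPA 19 members were called, and other tools, scalings, filters and a depth of 10000000 counts gave 17 to 27. The share of all genes called under each alternative is not given here. Changes in the counts below are thus not read as particular to the members. In 3’-LEXO 12 were called. Without an expression filter 20 were called in 3’-LEXO and 19 in both kits, and the cause was not tested. The 8 gained in 3’-LEXO (Gsta2, Gstm6, Gstp3, Gstt1, Sult1b1, Sult2a7, Ugt1a5 and Ugt2a3) had also been tested with the filter. The other settings, apart from left-out mice, gave 10 to 16 in 3’-LEXO. Leaving out 1 mouse gave 13 (without control mouse 2) to 25 (without iron-loaded mouse 1) calls in Trad-KAPA and 4 (without control mouse 3) to 14 (without iron-loaded mouse 1) in 3’-LEXO, where control mice 1 and 2 left out gave 7 and 6. For calls in both kits the range was 4 to 14. Without iron-loaded mouse 1 all 19 and all 12 calls were kept. No sign reversed among the single members. Of their values under alternatives 351 stayed on their side of the threshold and 49 lost it. A mean of at least 50 counts left no value for Gsta2 and Ugt2b37.

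The interaction of diet and kit had 0 calls among members under every alternative run. The kit difference had 26 calls at 2-fold, 29 without the expression filter, 26 with library totals and 26 with no replicate block. Replicate numbers are shared across the diets but belong to different mice, and same-numbered libraries correlated at -0.168 to 0.100, so they do not pair the diets. With the replicate block 23 members were called in Trad-KAPA, 10 in 3’-LEXO (without Gsto1 and Ugt2b1) and 10 in both kits.

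With 3 mice a group and 1 cage a diet, the fits show the spread between these mice and not that between cages. The 0 to 2 counts per 3’-LEXO library of Ugt1a10, Ugt1a2, Ugt1a6b and Ugt1a8 allow no statement on the diet.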
